A study of Mus musculus with 2 samples.

Results

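Titin (Ttn), obscurin-like 1 (Obsl1), myomesin 1 (Myom1), M-protein (Myom2), cardiac myosin-binding protein C (Mybpc3), myosin-binding protein H-like (Mybphl) and the striated muscle kinase Speg were examined in long reads of mouse heart. The 7 genes were taken by name, and the reads of a gene were those on every transcript model deposited under its symbol; 15410 annotated genes had reads in all. All 7 had reads in both libraries, together 1469 reads (0.146% of mouse reads) in replicate 2 and 1063 reads (0.154%) in replicate 1.

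The study holds 1 group with 2 libraries, labelled biological replicates 2 and 1, from heart tissue of male B6CASTF1/J mice at 18 to 20 months of age. These animals are the first cross of C57BL/6J and CAST/EiJ and received no stated treatment, and both libraries carry the same donor identifier and 2 µg as the RNA amount. The libraries held 1003999 mouse reads in replicate 2 and 688861 in replicate 1. There is no contrast of conditions: every ratio is replicate 2 over replicate 1, and every p-value compares these libraries against counting error only, so the spread between them may be technical.

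These proteins belong to the immunoglobulin and fibronectin domain superfamily of the sarcomere. Titin runs from the Z-disc to the M-band and acts as a molecular spring, and the myomesins cross-link titin and myosin filaments at the M-band. Obscurin-like 1 also has its place at the M-band. Myosin-binding proteins C and H sit on the thick filament, where the C protein tunes cross-bridge cycling. Speg is a giant kinase that acts at the junctional membranes of heart muscle. The messenger RNAs of titin and Speg are among the longest in the heart, and a cDNA that is primed at the poly(A) tail and not copied to the 5′ end gives a read that holds the 3′ part alone.

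The tissue label was checked against its markers. The 7 cardiomyocyte markers all had reads and summed to 31204 CPM in replicate 2, against 32838 CPM in replicate 1 (CPM, reads per 1000000 mouse reads), while the 8 skeletal muscle markers summed to 2 reads in replicate 2 and 1 read in replicate 1, with Myh1, Myh2, Myh4, Actn3 and Mylpf at 0. In bulk tissue, fewer cells of a type and less RNA per cell cannot be told apart.

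The 3 genes with the most reads were Mybpc3, Myom1 and Myom2. Mybpc3 had 438 reads (436 CPM) in replicate 2 and 349 reads (507 CPM) in replicate 1. Myom1 had 437 reads (435 CPM) in replicate 2 and 279 reads (405 CPM) in replicate 1. Myom2 had 379 reads (377 CPM) in replicate 2 and 269 reads (391 CPM) in replicate 1. The 95% intervals of neighbours in this order overlapped in both libraries, and by mean CPM the 3 genes ranked 286, 328 and 354 among all genes with reads. A long read counts 1 cDNA and is not divided by length, so this is an order of reads counted.

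The other members had far fewer reads. Ttn had 92 reads (91.6 CPM) in replicate 2 and 74 reads (107 CPM) in replicate 1. Speg had 68 reads (67.7 CPM) in replicate 2 and 37 reads (53.7 CPM) in replicate 1. Mybphl had 35 reads (34.9 CPM) in replicate 2 and 45 reads (65.3 CPM) in replicate 1, the widest gap between libraries among the 7 in relative terms. Obsl1, with 20 reads (19.9 CPM) in replicate 2 and 10 reads (14.5 CPM) in replicate 1, was the lowest. Among neighbours in this order, the intervals of Ttn and Speg overlapped in replicate 2 alone, those of Speg and Mybphl in replicate 1 alone and those of Mybphl and Obsl1 in replicate 2 alone, whereas those of Myom2 and Ttn were apart in both libraries.

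None of the 7 members differed between the libraries after adjustment (exact two-sided binomial test against the share of mouse reads, Benjamini-Hochberg over 8836 genes), and 2 had an unadjusted p under 0.05. The call depended on the models counted: without genomic models, Myom2 (log2 ratio -0.69, adjusted p = 6.24e-06) and Speg (1.42, adjusted p = 0.00257) were called by the same exact test, and with known transcripts alone Mybphl was called (-1.10, adjusted p = 0.0414). Genomic models held 136 Myom2 reads in replicate 2 and 0 in replicate 1. For Speg they held 0 reads in replicate 2 and 20 in replicate 1. Leaving them out thus removed reads of each gene from 1 library only. Over all genes tested, 297 were called (3.36%; 1.36% higher and 2.00% lower in replicate 2), and 1061 had an unadjusted p under 0.05. Mybphl had a log2 ratio of -0.89 on the log2(CPM + 1) scale (exact p = 0.00599, adjusted p = 0.124). Mybpc3 had a log2 ratio of -0.22 (exact p = 0.0386, adjusted p = 0.363). The median log2 ratio was -0.05 over the members and -0.06 over all genes tested. Beside Mybphl, which is known from atria and the conduction system, the 7 atrial markers summed to 3271 CPM in replicate 2, against 4351 CPM in replicate 1; Myl7, Nppa and Stard10 among them were called lower in replicate 2, and all 7 had reads. The 5 conduction markers summed to 4 reads in replicate 2 and 1 read in replicate 1, with Cpne5 and Shox2 among those at 0. Whether atrial content has a part in the Mybphl values was not tested.

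**Figure D1:**
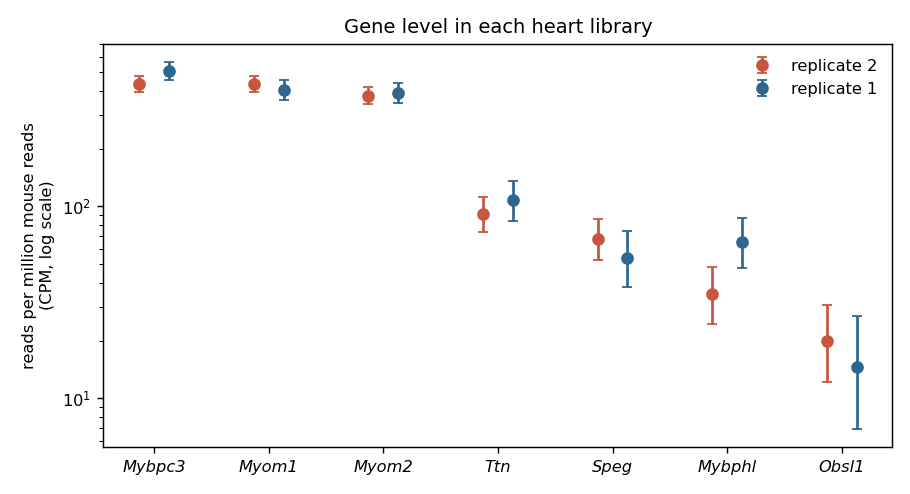
Level of each member gene in CPM (log axis), replicate 2 left and replicate 1 right. Points are single libraries and bars are 95% Clopper-Pearson intervals, which cover counting error only. Mybpc3, Myom1 and Myom2 lie between 377 and 507 CPM, and Mybphl has 34.9 CPM in replicate 2 and 65.3 CPM in replicate 1.

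The main property of these reads was that most did not hold a whole transcript. Each deposited model has a class. A known model matches an annotated transcript, and an incomplete splice match holds part of one. That part is a stretch of its intron chain or is unspliced, as in the largest Myom1 model (222 reads in replicate 2 and 107 in replicate 1). A genomic model, unspliced in every case among these 7 genes, overlaps the gene without such a match. Of the members' reads, 20.2% in replicate 2 and 21.5% in replicate 1 were on known models, against 72.4% and 74.8% over the reads of all annotated genes in the same libraries. Incomplete splice matches held 58.7% of the members' reads in replicate 2 and 64.6% in replicate 1, against 14.9% and 12.6% over all annotated genes. The libraries shared 107 of the 317 different models of these genes, and 138 of 239 models in replicate 2 and 93 of 185 in replicate 1 rested on 1 read.

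The members differed widely in this respect. Mybphl, the shortest at 1276 bases, had 80% of its reads on its annotated transcript in replicate 2 and 93.3% in replicate 1. Myom2 had 38.3% on known models in replicate 2 and 37.5% in replicate 1, and Myom1 had 26.3% in replicate 2 and 28.7% in replicate 1. Speg had 7.35% in replicate 2 and 10.8% in replicate 1, which were 5 reads in replicate 2 and 3 of 4 reads in replicate 1 on the short transcript Speg-204. Ttn and Mybpc3 had no read on a known model in either library.

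**Figure D2:**
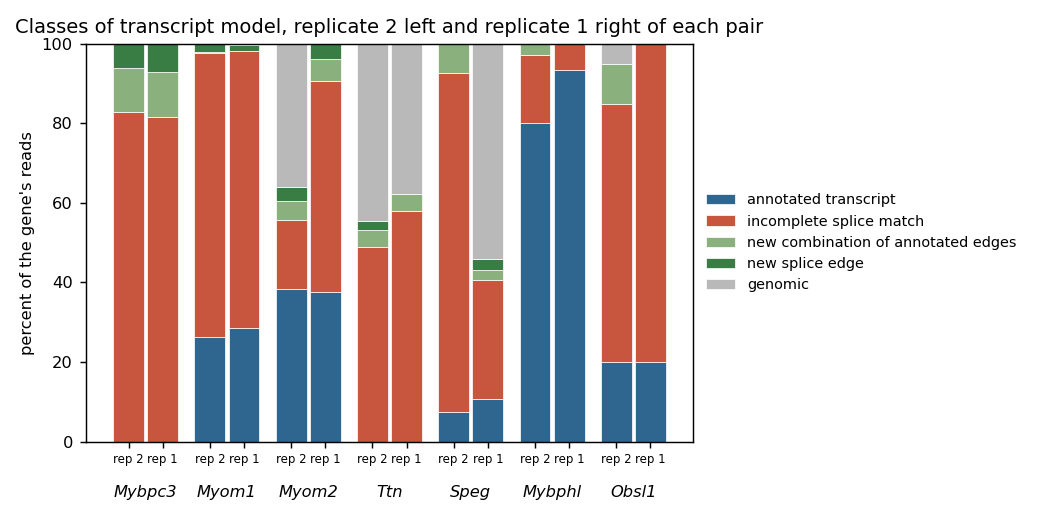
Share of each gene's reads by class of transcript model, replicate 2 left and replicate 1 right of each pair. Known models hold 80% and 93.3% of the Mybphl reads in these libraries and 0 reads of Mybpc3 and Ttn, and Myom2 and Speg exchange incomplete for genomic models between the libraries.

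The share of reads on incomplete splice matches was compared between libraries in 6 members (two-sided Fisher's exact test, 20 or more reads of the gene per library), and 2 were called, against 179 of 4087 genes (4.38%; 2.64% higher and 1.74% lower in replicate 2) over the whole table. Speg had 85.3% of its reads on such models in replicate 2 and 29.7% in replicate 1 (adjusted p = 8.89e-07). Myom2 had 17.4% in replicate 2 and 53.2% in replicate 1 (adjusted p = 1.47e-19). In both genes the largest unspliced model lay in the last exon of both libraries but had a different class in each. The Myom2 model, 704 bases long with 134 reads, was genomic in replicate 2, and the one of 897 bases with 80 reads was an incomplete match in replicate 1. The Speg model, 1046 bases long with 47 reads, was an incomplete match in replicate 2, and the one of 423 bases with 19 reads was genomic in replicate 1. When incomplete and genomic models were counted together, an alternative chosen after seeing the data, the shares were 53.3% in replicate 2 and 53.2% in replicate 1 for Myom2 and 85.3% and 83.8% in the same order for Speg, and none of the 6 members was called by the exact test (0 with an unadjusted p under 0.05), against 37 of 4087 genes (0.905%; 0.759% higher and 0.147% lower).

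How far reads extended was measured against the longest coding transcript of each gene. A read was counted as reaching the 5′ part when its model began within the first 20% of that transcript. Start and end were those of the deposited model, so a read on a known model takes the ends of the annotated transcript. These measures therefore overlap with the class shares above. Of the members' reads, 33.4% in replicate 2 and 37.1% in replicate 1 did so, and 98.2% in replicate 2 and 98.7% in replicate 1 ended within 200 bases of an annotated transcript end. The median over 3969 genes was 91.7% reaching the 5′ part in replicate 2 and 92.9% in replicate 1. Ttn had the lowest share at annotated ends among the 7, 82.6% in replicate 2 and 87.8% in replicate 1.

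Transcript length alone did not order the members. Mybpc3, with a transcript of 4163 bases, had 18.9% of reads reaching the 5′ part in replicate 2 and 21.5% in replicate 1. Myom2, with 5075 bases, had 51.7% in replicate 2 and 50.6% in replicate 1. Myom1, with 5648 bases, had 32.5% in replicate 2 and 41.6% in replicate 1. The 580 genes of 4000 to 6000 bases had a median of 85.0% in replicate 2 and 85.7% in replicate 1, with lower quartiles of 64.8% and 65.9%, so these 3 genes lay below the lower quartile of genes of like length in both libraries. Mybphl, with 88.6% in replicate 2 and 93.3% in replicate 1, was near the median of the 1411 genes under 2000 bases, 94.5% and 95.2%. Speg had 8.82% in replicate 2 and 5.41% in replicate 1, below the lower quartiles of the 30 genes of 10000 bases or more, which were 12% in replicate 2 and 17.9% in replicate 1. No Speg read covered the midpoint of its transcript in either library, so this share does not measure full-length Speg.

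**Figure D3:**
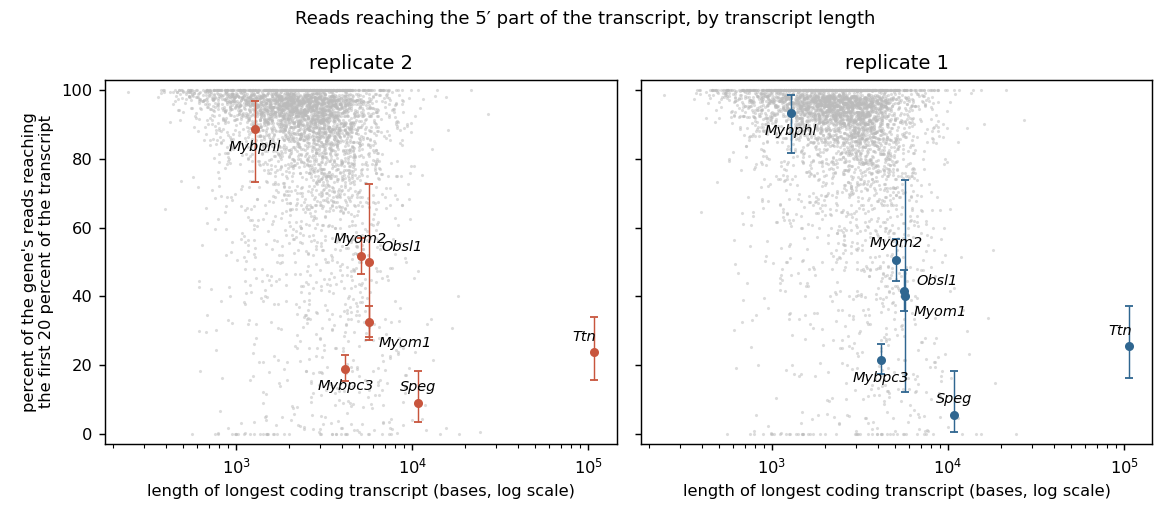
Percent of a gene's reads whose model begins in the first 20% of the longest coding transcript, against transcript length in bases (log axis), replicate 2 left and replicate 1 right. Grey points are other genes with 20 or more reads per library and coloured points are the members with 95% intervals; Mybpc3 lies at 18.9% in replicate 2 and 21.5% in replicate 1, whereas Mybphl lies at 88.6% and 93.3%.

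The starts of the incomplete models need care. Of the 248 models of the members that hold the 3′ part of an intron chain, 223 (89.9%) began exactly at an annotated exon edge. By reads, 569 of 600 (94.8%) of Mybpc3, 13 of 22 (59.1%) of Speg and 28 of 72 (38.9%) of Ttn on such models, libraries together, began at an edge. Whether reads began at these edges or model building placed the starts there was not tested.

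**Figure D4:**
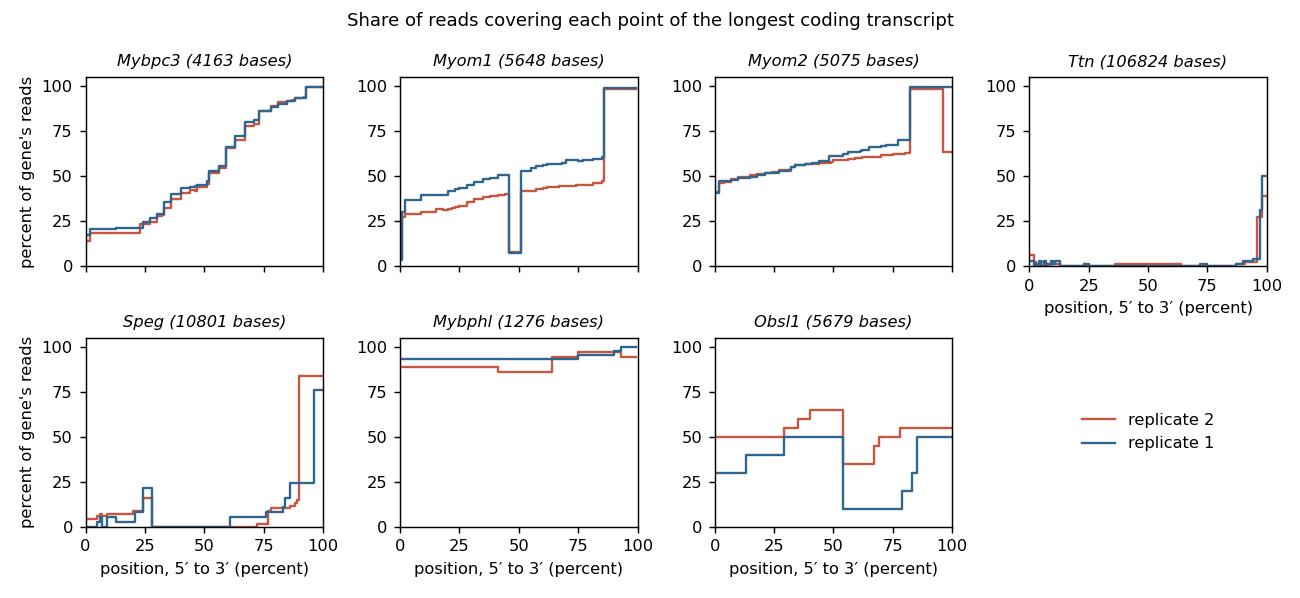
Percent of a gene's reads covering each point of its longest coding transcript, from 5′ to 3′, for replicate 2 and replicate 1. Coverage of Mybpc3 climbs in small steps to 86.1% in replicate 2 and 86.2% in replicate 1 at 75% of the length, Myom1 and Myom2 step up at the last exon, and Ttn and Speg are covered mainly at the 3′ end; the notch in Myom1 is an alternative exon.

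Ttn spans positions 76703980 to 76982547 of chromosome 2, minus strand (mm10, GENCODE M21), and its longest coding transcript, Ttn-203, has 106824 bases in 347 exons. No read spanned it. Of the Ttn reads, 67 (72.8%) in replicate 2 and 52 (70.3%) in replicate 1 ended at the main 3′ end, and 0 of these in either library reached the first 20% of the transcript. Unspliced reads within the last exon made up 31 of them in replicate 2 and 15 in replicate 1. Next came a 6-exon model of 4509 bases with 23 reads in replicate 2 and 3722 bases with 21 reads in replicate 1. The longest model at this end had 22 exons and 14354 bases in replicate 1, or 13.3% of the transcript.

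Reads elsewhere in Ttn were few. Of the 346 introns of Ttn-203, 149 were crossed by at least 1 read in replicate 2 and 64 in replicate 1, or 171 in the libraries together. The longest model, 21558 bases in 85 exons, was 1 read of replicate 2 and covered 20.2% of the transcript. It joined the exon that starts at 76906254 to the one that ends at 76818816, a junction annotated in Ttn-201 alone, across 154 exons and 24843 bases of Ttn-203. In replicate 1, 1 read of 9 exons joined the same starting exon to one that ends at 76881839, a junction not in the annotation, across 39 exons and 11268 bases. These exons encode the I-band spring of titin, whose splicing by RBM20 is known to set the stiffness of the protein; Rbm20 itself had 69.7 CPM in replicate 2, against 56.6 CPM in replicate 1 and was not called (adjusted p = 0.831, exact binomial test).

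Some reads stopped at an early annotated end as well. Ttn-202 stops at 76913944 in a last exon of 6520 bases, the layout of the short novex-3 form known from human titin, which lacks the A-band and M-band parts. This end had 7 reads (7.61%, 95% interval 3.11 to 15.1) in replicate 2 and 11 reads (14.9%, 7.66 to 25) in replicate 1. All 7 in replicate 2 and 10 of the 11 in replicate 1 were unspliced, and the other was a 5-exon model of 7177 bases. The unspliced ones were classed as genomic and lay within the last exon of Ttn-202, and whether they come from that transcript was not tested. The reads at this end lie early in the gene and are part of the 23.9% in replicate 2 and 25.7% in replicate 1 of Ttn reads that reached the first 20%, so that share does not measure full-length titin. At the M-band end, the penultimate exon of 303 bases from 76705670 to 76705972, known as Mex5 and alternatively spliced in striated muscle, was included in 36 of 36 reads in replicate 2 and 37 of 37 in replicate 1; the 95% intervals allow skipping in up to 9.74% and 9.49% of reads.

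Myom1 spans positions 71002633 to 71126856 of chromosome 17, plus strand. Unspliced reads of its last exon, 780 bases long, were its largest model, with 222 reads (50.8%) in replicate 2 and 107 reads (38.4%) in replicate 1. This largest-model share was compared by Fisher's exact test in 6 members, and none was called, against 29 of 4087 genes (0.710%; 0.367% higher and 0.343% lower). Myom1 had the only unadjusted p under 0.05 among them (exact p = 0.00124, adjusted p = 0.101). Among its reads on known models, Myom1-203 had 97 in replicate 2 and 71 in replicate 1, and Myom1-202 had 17 in replicate 2 and 9 in replicate 1.

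Myom1-202 contains and Myom1-203 lacks the EH exon, named for the embryonic heart form of myomesin, which encodes an elastic segment in the middle of the protein. The exon lies at chr17:71082203-71082496, in the coding part of the gene, and its 294 bases are a multiple of 3. It is shown because it marks the form of myomesin that is typical of the embryonic heart, with the exon in capitals and 3 bases of each neighbouring exon in lower case.
Myom1 EH exon: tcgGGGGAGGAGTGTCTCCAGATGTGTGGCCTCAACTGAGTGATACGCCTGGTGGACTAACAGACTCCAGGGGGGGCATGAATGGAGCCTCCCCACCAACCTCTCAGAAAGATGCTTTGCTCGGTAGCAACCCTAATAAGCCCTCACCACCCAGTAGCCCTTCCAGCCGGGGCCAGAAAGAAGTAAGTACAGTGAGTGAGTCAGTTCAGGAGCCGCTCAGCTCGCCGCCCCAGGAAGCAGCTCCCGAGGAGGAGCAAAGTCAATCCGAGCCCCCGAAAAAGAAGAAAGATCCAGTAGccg

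The EH exon was included in 28 of 175 reads that left the exon before it (16.0%, 95% interval 10.9 to 22.3) in replicate 2 and in 18 of 141 (12.8%, 7.74 to 19.4) in replicate 1. Skipping was the main form in both libraries, and the intervals overlapped. When models of 1 read were left out, the mean of the libraries was 10.6%, against 14.4% with them.

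Near the 3′ end, Myom1 has alternative exons of 23 bases. Myom1-202 and Myom1-203 carry one and Myom1-201 carries another, and the pair share 6 of 23 bases. They are shown because almost all reads chose the same one; the exon is in capitals between 20 bases of each neighbour, taken from the transcripts on chromosome 17, plus strand, in mm10.
Myom1-202: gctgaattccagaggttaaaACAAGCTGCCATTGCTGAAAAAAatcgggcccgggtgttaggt
Myom1-201: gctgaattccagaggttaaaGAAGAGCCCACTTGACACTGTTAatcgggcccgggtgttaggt

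The exon of Myom1-202 was used in 197 of 201 reads in replicate 2 and 164 of 166 in replicate 1. The exon of Myom1-201 was used in 0 reads of either library, which allows up to 1.82% and 2.20% by the 95% intervals. The remaining 4 reads in replicate 2 and 2 in replicate 1 skipped both and entered the next exon 18 bases early.

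Myom2, at positions 15057653 to 15133541 of chromosome 8, plus strand, had the highest share of reads on known models after Mybphl. Myom2-201, with 5075 bases in 37 exons, had 145 reads (38.3%) in replicate 2 and 101 reads (37.5%) in replicate 1. The next model was the unspliced 3′ end described above. Of the reads that entered the second exon of Myom2-201, 155 of 174 (89.1%) in replicate 2 and 109 of 126 (86.5%) in replicate 1 came from its own first exon. The first exon of Myom2-204 gave 10 reads in replicate 2 and 7 in replicate 1, and that of Myom2-202 gave 6 in replicate 2 and 9 in replicate 1. Models of 37 exons that begin with these other first exons are not in the annotation. The one of 5127 bases had 9 reads in replicate 2 and 7 in replicate 1, and the one of 5221 bases had 6 in replicate 2 and 8 in replicate 1.

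Mybpc3 spans positions 91118144 to 91136516 of chromosome 2, plus strand. Its reads formed a ladder of 3′ parts: 409 reads in replicate 2 and 323 in replicate 1 joined the penultimate exon to the last one, at its annotated start or 12 bases before it, whereas 61 in replicate 2 and 60 in replicate 1 crossed the first intron. The model with the most reads had 11 exons and 1707 bases, with 45 reads (10.3%) in replicate 2 and 34 reads (9.74%) in replicate 1. The most frequent model that began at the annotated start had 32 exons and 4157 bases, with 31 reads in each library. It is not in the annotation, in which the longest transcript, Mybpc3-203, has 35 exons.

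The difference lies in very small exons. Mybpc3-203 and Mybpc3-201 have 35 exons and Mybpc3-202 has 34, and all 3 hold exon 14 of Mybpc3-203, which is 3 bases long. They differ in the small exons 10 and 11, which are shown because the reads joined their neighbours in other ways; small exons are in capitals between 20 bases of each neighbour, from 91121936 to 91122874 on chromosome 2 (mm10). The capitals are exons of 3 and 12 bases in Mybpc3-203, of 12 bases in Mybpc3-202, and of 3 and 9 bases in Mybpc3-201.
Mybpc3-203: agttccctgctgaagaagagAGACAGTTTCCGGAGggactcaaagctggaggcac
Mybpc3-202: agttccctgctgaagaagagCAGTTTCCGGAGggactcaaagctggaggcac
Mybpc3-201: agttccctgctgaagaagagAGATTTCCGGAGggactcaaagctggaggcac

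No read had exon 10 or exon 11 at its annotated place, 0 of 82 in replicate 2 and 0 of 74 in replicate 1. Instead, 49 reads (59.8%, 95% interval 48.3 to 70.4) in replicate 2 and 51 (68.9%, 57.1 to 79.2) in replicate 1 had an exon 9 that ran 12 bases longer and joined exon 12. In 13 reads of each library, exon 12 began 17 bases early. Exon 9 ran 4 bases longer in 9 reads of replicate 2 and 5 of replicate 1, and the annotated edges of exons 9 and 12 were joined in 11 reads of replicate 2 and 5 of replicate 1. The intron bases behind the longer exons were not compared with the small exons, since no genome sequence of the build was used here. These longer edges are not in the annotation and were listed after the junctions had been seen.

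Exon 14 was likewise absent: 108 of 108 reads in replicate 2 and 94 of 94 in replicate 1 joined exon 13 directly to exon 15. Because each annotated Mybpc3 transcript contains this exon, a read across the whole gene without it could match none of them. The same count was made for annotated internal exons in all genes, with at least 20 reads joined to the exon or across it in the libraries together. Of 23 exons of 1 to 6 bases, 16 had no read joined to them, among them the 5 exons of 3 bases, which include exon 14 of Mybpc3 itself. Of 34 exons of 7 to 12 bases, 16 had none, as had 27 of 93 exons of 13 to 20 bases. Of 439 exons of 21 to 30 bases, 39 had none. How the reads were aligned over small exons is not given in the sources used here, and its part in these values was not tested.

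At the 3′ end of Mybpc3, the last exon began 12 bases before its annotated start in 22 of 409 reads (5.38%) in replicate 2 and 29 of 323 (8.98%) in replicate 1. New junctions made up 3.63% of the junction reads of Mybpc3 in replicate 2 and 3.95% in replicate 1. The other 6 members had at most 2.20% in replicate 2, for Ttn (8 reads), and 1.12% in replicate 1, for Speg (1 read).

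**Figure D5:**
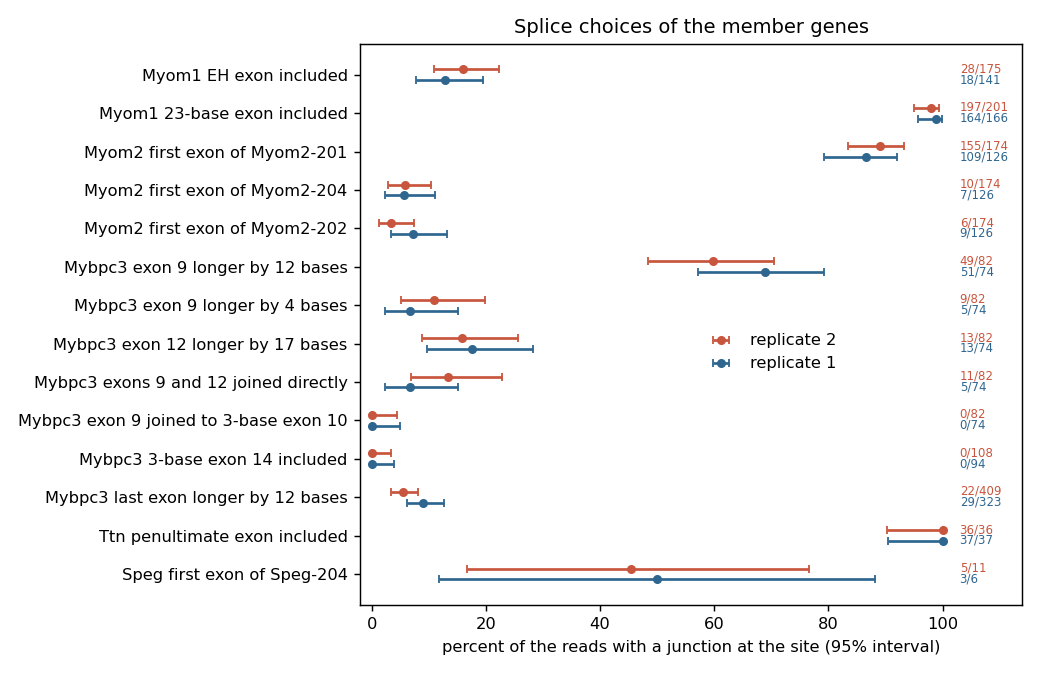
Splice choices as a percent of the reads with a junction at the site, replicate 2 above replicate 1 in each pair, with 95% intervals and the read counts at the right. The EH exon of Myom1 is included in 16.0% of reads in replicate 2 and 12.8% in replicate 1, and the annotated 3-base exons of Mybpc3 in 0 reads of either library.

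Mybphl, at positions 108364911 to 108380057 of chromosome 3, plus strand, has 9 exons in 1 annotated transcript. That transcript had 28 reads (80%) in replicate 2 and 42 reads (93.3%) in replicate 1. A single read of replicate 2 skipped exons 4 and 5, 1 of 30 reads at that site, against 0 of 42 in replicate 1. Most Mybphl reads were thus on the known model, which takes the ends of the annotated transcript.

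Obsl1 spans positions 75479310 to 75506452 of chromosome 1, minus strand, and besides its place at the M-band it is known with Cul7 and Ccdc8 from a growth disorder in human. Its few reads divided between ends. The end of Obsl1-202 had 11 of 20 reads in replicate 2 and 5 of 10 in replicate 1, and the earlier end of Obsl1-201 and Obsl1-203 had 8 reads in replicate 2 and 4 in replicate 1. The full Obsl1-202, 5679 bases in 20 exons, had 2 reads in replicate 2 and 0 in replicate 1. An internal exon annotated in a short Obsl1 transcript alone was included in 5 of 9 reads in replicate 2 and 0 of 1 in replicate 1, too few to compare.

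Speg, at positions 75375297 to 75432320 of chromosome 1, plus strand, has a longest coding transcript of 10801 bases in 41 exons. No read held more than 28.2% of it in replicate 2 or 38.8% in replicate 1, and 18 of its 40 introns were crossed in replicate 2 and 17 in replicate 1. The main 3′ end had 57 reads (83.8%) in replicate 2 and 28 reads (75.7%) in replicate 1, of which 47 in replicate 2 and 19 in replicate 1 were unspliced. The short Speg-204, 833 bases in 5 exons, was the known model of 5 reads in replicate 2 and 3 in replicate 1. Where both forms meet, its first exon was joined in 5 of 11 replicate 2 reads and 3 of 6 in replicate 1. The others joined the upstream exon of the longest transcript, but no read covered the midpoint of that transcript in either library. Early ends of Speg-202, Speg-203, Speg-205 and Speg-206 had 6 reads (8.82%) in replicate 2 and 6 (16.2%) in replicate 1.

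Mybpc2, the fast skeletal form of protein C, had 22 reads in replicate 2 and 14 in replicate 1. Other skeletal paralogs had few reads or none: Myom3 had 2 reads in replicate 2 and 0 in replicate 1, Mybpc1 had 0 in replicate 2 and 1 in replicate 1, and Mybph had 0 in both, where the two-sided 95% interval of 0 reads extends to 3.67 CPM in replicate 2 and 5.36 CPM in replicate 1.

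The list of 34 related genes, paralogs included, had 27 that could be tested; 3 were called higher in replicate 2, 6 lower and 18 not, against 1.36% higher and 2.00% lower over all genes. The list was not matched to all genes by reads, and the test calls smaller ratios at higher counts. Myh6, for example, had 15468 reads in replicate 2 and 11708 in replicate 1, whereas a gene needed only 10 reads to be tested. Myh7, the slow myosin heavy chain, had 379 CPM in replicate 2, against 87.1 CPM in replicate 1 (log2 ratio 2.11). Ankrd1, a stress-responsive partner of the titin I-band, had 736 CPM in replicate 2, against 556 CPM in replicate 1, and Myl2, the ventricular regulatory light chain, had 4494 CPM in replicate 2, against 3943 CPM in replicate 1. Those called lower included Trim63, a ubiquitin ligase that binds the M-band part of titin (log2 ratio -0.86), Fhl2 (-0.45), the M-band creatine kinase Ckm (-0.38), Actn2, the Z-disc anchor of titin (-0.19), and Myh6, the main adult myosin heavy chain of the mouse heart (-0.14). Among those not called, Tcap, the titin cap at the Z-disc, had 3289 CPM in replicate 2, against 3141 CPM in replicate 1, Myl3 had 6961 CPM in replicate 2, against 7267 CPM in replicate 1, and Atp2a2, the calcium pump and a substrate of Speg, had 5867 CPM in replicate 2, against 5953 CPM in replicate 1. The median log2 ratio of the tested genes of this list was -0.14, against -0.06 over all genes tested.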

How the data were processed

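Long-read RNA sequencing of 2 heart libraries was analysed. The authors deposited whole-number read counts per transcript model, not normalized, with an annotation of the models; per the deposited text descriptions these are in mm10 with GENCODE M21, and TALON stands in the annotation's source field. Neither the aligner nor any version is given in the sources used here. Gene counts were summed over all models with the gene's symbol; CPM used mouse reads, without spike-ins, and log2 ratios a pseudocount of 1 CPM.

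Gene reads were compared by an exact binomial test over genes with at least 10 reads, and shares by Fisher's exact test over genes with 20 or more reads per library, each adjusted by Benjamini-Hochberg at 0.05; both were tested on simulated data. Shares carry 95% Clopper-Pearson intervals. Spliced models were matched between libraries by intron chain, unspliced ones by overlap. Positions, exons and printed sequences came from the GENCODE M21 annotation and transcripts. edgeR 4.0.16 and DESeq2 1.42.0 gave scaling factors for alternatives; scipy 1.17.1 and R 4.3.3 were used.

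The members and lists were chosen with earlier results of these data known, as was the rule for what is named: all members, their models with the most reads, the paralogs, the 6 other related genes with the highest mean CPM and every called one. The marker lists were checked for muscle (above) and for other cells: smooth muscle and mural markers summed to 322 CPM in replicate 2 and 328 CPM in replicate 1, fibroblast to 488 and 662 CPM, endothelial to 110 and 91.5 CPM, and adipocyte to 37.8 and 244 CPM in the same order. Car3 and Cfd of the adipocyte list and Col3a1 of the fibroblast list were called lower in replicate 2. Longer exon edges of Mybpc3 and Myom1 were listed after seeing the data, as was the joint count of incomplete and genomic models. Some genes of the related and marker lists are counted in their lists but not reported here by name.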

Additional observations from a re-analysis of the deposited data

Results flagged for a closer look

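Reads on the strand opposite Ttn belong to no comparison above. Around chromosome 2, 76838896 to 76843492 (mm10), unspliced models outside annotated genes had 11 reads in replicate 2 and 4 in replicate 1, above the limit of 3 reads set here for a count of 0 in each library. All models opposite Ttn together had 26 reads in replicate 2 and 13 in replicate 1, against 92 and 74 on Ttn itself. There were no control samples, and whether these reads are antisense transcripts was not tested.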

How the results depend on the processing

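No paired analysis was possible because there is 1 group. The count of A-rich ends was not run, since no genome of the build was used here. The number of members called for gene level, 0 of 7, was 0 with TMM scaling, DESeq2 size factors, minimums of 1 or 50 reads and spliced models, 1 of 3 tested with known transcripts (Mybphl) and 2 of 7 without genomic models (Myom2 and Speg). All genomic reads of Myom2 were in replicate 2 and all those of Speg in replicate 1, so settings without genomic models removed reads from that library alone. The members called for incomplete share, 2 of 6, numbered 1 of 4 with at least 50 reads and 1 of 5 without genomic models, both Myom2, since Speg had too few reads to be tested, and 0 of 6 with genomic models added, chosen after seeing the data; the last setting called 37 genes in all against 179. The members called for largest-model share, 0 of 6, numbered 1 of 5 without genomic models (Myom2) and 1 of 6 with models of at least 2 reads (Myom1, adjusted p = 0.0315, exact test), where 99 and 56 genes were called in all against 29. Uncalled values changed sign: Myom2 level 0.013 with TMM and 0.012 with DESeq2 factors, Myom1 -0.020 with known transcripts and -0.23 with spliced models, Speg -0.23 with spliced models, and the Ttn largest-model difference -0.55 points without genomic models; the called Myom2 incomplete difference became 0.14 points with genomic models added. The largest Ttn model is itself genomic, so the setting without genomic models compared the 6-exon model instead, at 45.1% in replicate 2 and 45.7% in replicate 1. Causes of these changes were not tested. Reads at annotated ends, 98.4%, became 93.9% within 50 bases, where the Myom2 model that stops short no longer counts, and 99.8% with models of at least 2 reads. EH exon inclusion, 14.4%, became 10.6% with models of at least 2 reads. Leaving out a replicate gave 33.4% to 37.1% reaching the 5′ part, 98.2% to 98.7% at annotated ends and 12.8% to 16.0% EH inclusion. Ttn, Speg, Mybphl and Obsl1 have under 100 reads a library, so rare forms were not detectable at this depth.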
